A study of Rattus norvegicus with 8 samples.

Results

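The proteasome is the large barrel-shaped protease that breaks down proteins marked with ubiquitin. Its genes were taken as every symbol that begins with Psm, then a letter from a to g, then a digit, after the accession of each non-control array probe had been matched to a RefSeq symbol. The rule found 46 symbols of 15159 with a probe, through 52 of 30367 probes. Of these, 45 were tested among 19137 genes. That total also holds probes without a symbol, each counted as a gene under its accession or probe name. The one left out, Psma8, an alpha subunit of male germ cells, was not well above background on more than 2 of 8 arrays with any of its 3 probes. A pair of the 45, Psmc3ip and Psme3ip1, match the pattern by name only, which leaves 43 proteasome genes. A further 8 protein-coding symbols of the pattern, among them Psmd11, Psmg1 and the thymus subunit Psmb11, had no matched probe and were not analysed here.

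Lung endothelial cells were taken 5 days after rats had been injected under the skin with monocrotaline (60 mg/kg; 4 rats) or with saline (4 rats). The rats were of the Sprague-Dawley strain and 8 to 10 weeks old. Monocrotaline, an alkaloid of Crotalaria plants made toxic by the liver, injures lung vessels and leads to pulmonary hypertension. The cells were caught from collagenase-digested whole lung with magnetic beads against CD31, an adhesion molecule that platelets and some leukocytes carry too, and their RNA was taken with no culture step. Each sample was read on its own 1-colour Cy3 array. All 8 arrays lay on 1 slide with the groups in separate rows, so slide row and group cannot be told apart. A value below is a scaled log2 signal: the log2 signal of the probe minus the 75th percentile of its array. A difference of 1 is a doubling, and the signals of different probes cannot be ranked against each other.

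The core of the proteasome, the 20S particle, is a stack of rings of alpha and beta subunits. The alpha rings form the gate, and among the beta subunits Psmb5, Psmb6 and Psmb7 carry the cutting sites. Interferon-gamma induces Psmb8, Psmb9 and Psmb10, which replace these catalytic subunits in newly built particles (the immunoproteasome) and favour the making of peptides for MHC class I. The 19S particle caps the core: its ATPases (Psmc genes) unfold the substrate, and its other subunits (Psmd genes) bind and strip ubiquitin. In lung endothelium, as in other cells, antigen processing and the turnover of regulatory proteins depend on it.

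The DNA around the start of the catalytic genes is shown first, because the report sets the interferon-inducible subunits against the constitutive ones. Each stretch holds 250 bases before and 50 after the transcript start as RefSeq gives it on the rat build GRCr8, written along the gene's own strand. Capitals mark matches to an interferon-stimulated response element (GAAA, then NN, then GAAA), to a gamma-activated site (TTCNNNGAA) or to an antioxidant response element (TGACNNNGC or TGAGNNNGC), the motif class bound by NFE2L1 and NFE2L2, where N is any base and both strands were searched. None of the matches in these stretches overlaps another. The first 4 genes are interferon-inducible, and Psme1, the fifth of that set, is not shown.
Psmb8 (chr20:4656982-4657281, minus strand): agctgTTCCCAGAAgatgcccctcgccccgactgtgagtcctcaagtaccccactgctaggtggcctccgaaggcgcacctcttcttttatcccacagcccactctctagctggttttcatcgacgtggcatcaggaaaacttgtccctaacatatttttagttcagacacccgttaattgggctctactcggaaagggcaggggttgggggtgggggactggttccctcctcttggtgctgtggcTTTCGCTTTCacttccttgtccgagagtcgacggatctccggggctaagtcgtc
Psmb9 (chr20:4668750-4669049, plus strand): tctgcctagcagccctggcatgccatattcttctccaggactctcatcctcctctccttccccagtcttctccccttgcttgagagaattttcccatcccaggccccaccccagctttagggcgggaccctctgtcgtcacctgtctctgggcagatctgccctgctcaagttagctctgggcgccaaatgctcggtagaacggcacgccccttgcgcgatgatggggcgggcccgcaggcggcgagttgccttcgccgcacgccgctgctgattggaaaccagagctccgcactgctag
Psmb10 (chr19:50743243-50743542, minus strand): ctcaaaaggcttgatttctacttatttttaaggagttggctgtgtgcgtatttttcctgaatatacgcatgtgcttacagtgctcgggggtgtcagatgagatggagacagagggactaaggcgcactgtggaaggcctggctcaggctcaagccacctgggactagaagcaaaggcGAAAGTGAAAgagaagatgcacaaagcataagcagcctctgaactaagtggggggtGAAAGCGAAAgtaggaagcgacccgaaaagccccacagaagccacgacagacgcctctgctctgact
Psme2 (chr15:33052702-33053001, minus strand): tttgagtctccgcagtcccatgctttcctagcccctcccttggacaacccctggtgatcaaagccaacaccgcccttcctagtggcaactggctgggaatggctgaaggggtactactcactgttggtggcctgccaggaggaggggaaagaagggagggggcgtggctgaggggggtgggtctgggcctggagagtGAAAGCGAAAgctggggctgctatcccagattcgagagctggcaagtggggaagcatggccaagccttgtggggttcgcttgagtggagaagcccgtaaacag
Psmb5 (chr15:32047330-32047629, minus strand): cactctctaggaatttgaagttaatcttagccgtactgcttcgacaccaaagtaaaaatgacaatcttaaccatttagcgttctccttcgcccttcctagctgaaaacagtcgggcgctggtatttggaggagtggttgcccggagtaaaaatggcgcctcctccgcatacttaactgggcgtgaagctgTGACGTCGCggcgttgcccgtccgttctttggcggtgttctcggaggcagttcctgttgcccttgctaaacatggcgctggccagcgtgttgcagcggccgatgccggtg
Psmb6 (chr10:55737638-55737937, plus strand): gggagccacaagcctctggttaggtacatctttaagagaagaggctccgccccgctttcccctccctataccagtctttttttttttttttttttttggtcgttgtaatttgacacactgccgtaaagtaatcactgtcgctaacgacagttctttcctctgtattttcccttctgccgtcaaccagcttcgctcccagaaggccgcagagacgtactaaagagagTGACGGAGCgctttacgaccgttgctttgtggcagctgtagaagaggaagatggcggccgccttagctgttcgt
The stretch of Psmb10 holds 2 interferon-stimulated response element matches, which begin 73 and 17 bases before the start. That of Psme2 holds 1, beginning 53 bases before the start. That of Psmb8 holds 1 on the other strand, beginning 4 bases before the start, and 1 gamma-activated site match further upstream. No match to these motifs lies in the stretch of Psmb9, of Psme1 or of Psmb7 (the last pair not shown). Psmb5 and Psmb6 hold 1 antioxidant response element match each, beginning 60 and 24 bases before the start. Promoters were found for 41 of the 45 tested symbols. The interferon-stimulated response element letters were in 7 of the 41 (Psma4, Psmb3, Psmb8, Psmb10, Psmd7, Psme2 and Psmg4), against 3.92% of all 33469 promoters. The gamma-activated site letters were in 4 of the 41, against 8.87%. Either form of the antioxidant response element was in 17 of the 41, against 27.1%. In the annotation Tap1, the peptide transporter gene, lies between Psmb8 and Psmb9.

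Levels of the proteasome genes after monocrotaline stayed close to those after saline. By limma, at a Benjamini-Hochberg adjusted p under 0.05, 0 of the 45 tested symbols rose and 0 fell, where 1.37% of all genes tested rose and 0.0627% fell. At an unadjusted p under 0.05, Psme3 and Psmc3ip were higher and Psme4 was lower, that is 2 and 1 of 45, beside 6.72% and 7.23% of all genes. The groups did not overlap for 1 of the 45 with monocrotaline higher (Psmc3ip) and for 0 with monocrotaline lower, beside 4.55% and 3.98% of all genes. The median log2 fold change was -0.01 over the 43 proteasome genes and -0.03 over all genes tested, with 20 of the 43 positive and 23 negative. The 95% interval of the fold change lay within 2-fold either way for 43 of 43 proteasome genes, and within 1.5-fold either way for 39 of 43, or 90.7%. Over genes well above background on all 8 arrays, as the 43 were, these shares were 76.8% and 43.4%. The 4 exceptions to the 1.5-fold bound were Psme3, Psme4, Psmd10 and Psmg2. The spread between rats was small too. The median SD within groups was 0.14 log2 units over the 43 genes and 0.26 over genes well above background on all 8 arrays. Those comparison genes were not matched to the 43 in signal level, and the part of signal level in these differences was not tested. The narrower intervals and the smaller SD are thus not shown to be a trait of the proteasome. Table entries for 48 pseudogenes carry symbols of the same pattern, and whether their transcripts add to a probe's signal was not tested.

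**Figure D1:**
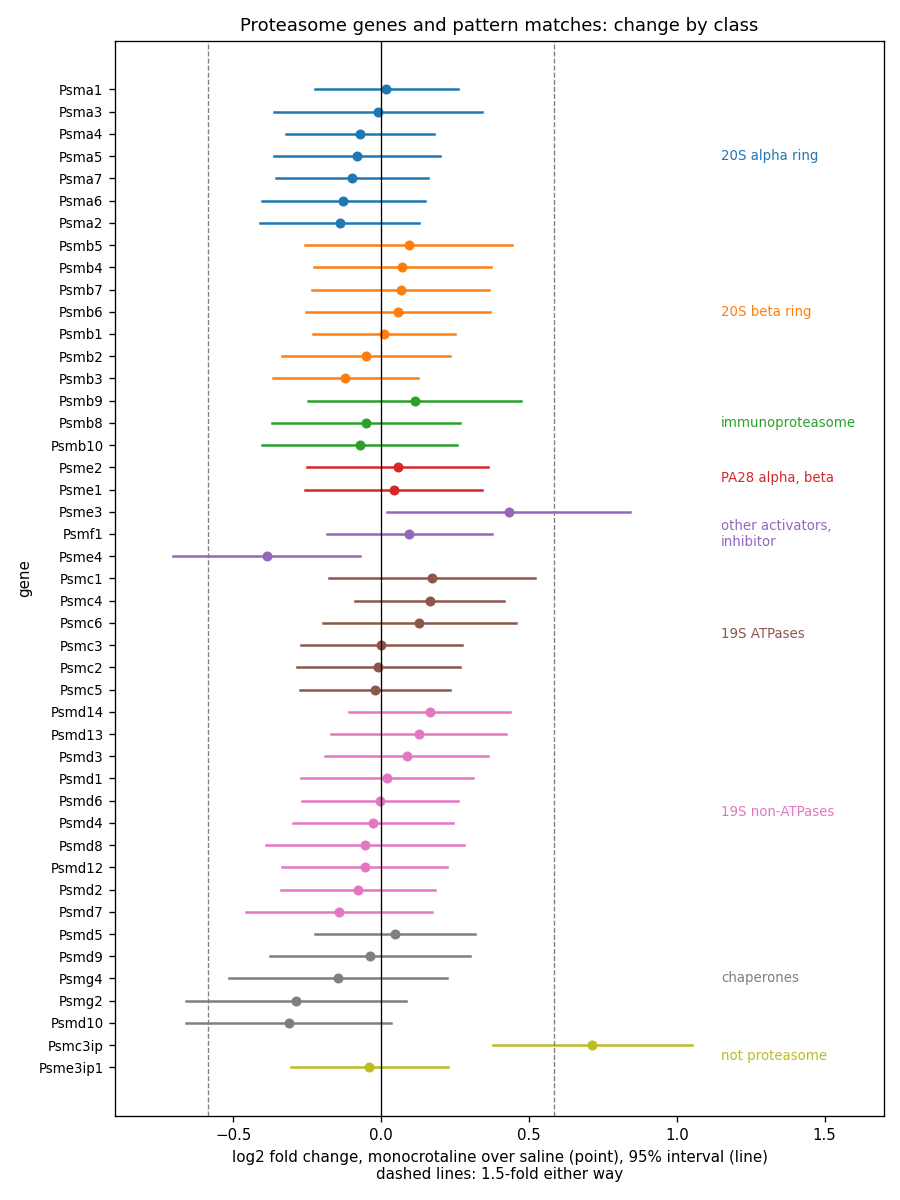
Log2 fold change, monocrotaline over saline (x axis), of each of the 45 tested symbols (y axis), coloured by class, with the limma 95% interval as a line and dashed lines at 1.5-fold either way. The points of the 20S and 19S subunits lie close to 0, Psme3 and Psme4 lie to either side, and Psmc3ip lies furthest to the right at 0.71.

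The cells carried endothelial markers. All 12 tested of 14 were well above background on all 8 arrays, with 0 called by limma and a median log2 fold change of -0.60 (all 12 negative). At an unadjusted p under 0.05, 7 of the 12 were lower and 0 higher, beside 7.23% and 6.72% of all genes. In 2 the groups did not overlap, with monocrotaline lower, beside 3.98% of all genes. Markers of other cells were present as well. Of 20 T and NK cell markers 19 were tested, and 3 rose by limma (Cd247, Zap70 and Cd8b), beside 1.37% of all genes. All 19 log2 fold changes were positive, with a median of 1.33. At an unadjusted p under 0.05, 16 of the 19 were higher and 0 lower, beside 6.72% and 7.23% of all genes. In 14 the groups did not overlap, with monocrotaline higher, beside 4.55% of all genes. The mean of these T and NK markers over the saline mean ran from 0.93 to 1.92 on monocrotaline arrays and from -0.79 to 0.45 on saline arrays. Of 14 tested proliferation genes 11 rose, with a median of 1.56, where 1.37% of all genes tested rose. These lists, like the other gene lists here, were chosen with earlier results of these data known, so their counts are a description. In RNA of a bulk sample, fewer cells of a type and less RNA per cell cannot be told apart. The arrays also differed among themselves in the proteasome genes. Monocrotaline replicate 3 was the lowest monocrotaline array for 32 of the 43 genes, and saline replicate 4 was the highest saline array for 30 of the 43. Taken over the saline mean, the median of the 43 genes on monocrotaline replicates 1 to 4 was 0.08, 0.05, -0.17 and 0.03, and it was -0.08, -0.00, -0.03 and 0.14 on saline replicates 1 to 4. Monocrotaline replicate 3 also had the highest marker means of that group for airway (3.19, others 0.47 to 3.07), erythroid (2.91, others -0.29 to 0.70), leukocyte (1.22, others -0.13 to 0.22) and T and NK cells (1.92, others 0.93 to 1.42), and its endothelial mean was -0.77 (others -0.84 to -0.12). That replicate was highest too for neutrophil (1.85), B and plasma (1.03), alveolar type 2 (0.71) and dendritic markers (0.22). For macrophage and monocyte markers it was not (0.06, against 1.11 on replicate 4), nor for fibroblast and smooth muscle markers (0.65, against 1.10 on replicate 1). Saline replicate 4 had the highest endothelial mean of its group, 0.38. The part of cell makeup in these differences was not tested. Without monocrotaline replicate 3 the median log2 fold change of the 43 genes was 0.05, and the only member called was Psmc3ip.

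**Figure D2:**
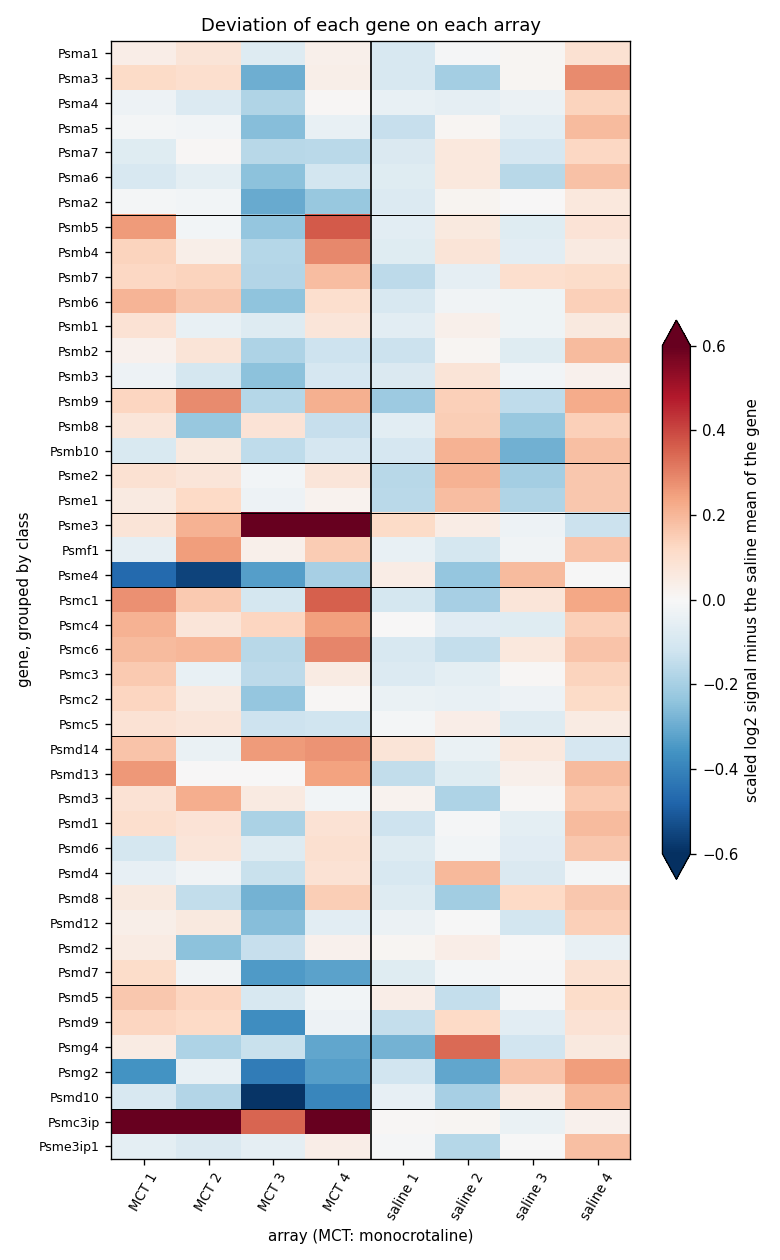
Scaled log2 signal minus the saline mean of the gene (colour, in log2 units, saturating at 0.6) for each tested symbol (rows, grouped by class) on each array (columns, monocrotaline left of the line and saline right of it). Blue runs down the column of monocrotaline replicate 3, the lowest of its group for 32 of 43 proteasome genes, and red down that of saline replicate 4, the highest of its group for 30.

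The 7 measured alpha subunits, which build the outer rings and the gate of the core, had a median log2 fold change of -0.08, with 6 negative and 0 called. Psma2, the most negative of them, read 1.97, 1.97, 1.68 and 1.76 in monocrotaline samples, against 1.90, 2.00, 1.99 and 2.05 in saline samples. Its replicates 3 and 4 after monocrotaline lay below all saline samples, while replicates 1 and 2 lay among them. The log2 fold change was -0.14 ± 0.12 (SE, n = 4 per group, limma adjusted p = 0.637). Psma6 read 4.68, 4.72, 4.53 and 4.67 in monocrotaline samples, against 4.70, 4.84, 4.61 and 4.95 in saline samples, and the groups overlapped (-0.13 ± 0.12, limma adjusted p = 0.681). The remaining 5, Psma1, Psma3, Psma4, Psma5 and Psma7, had log2 fold changes from -0.10 to 0.02.

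The 7 constitutive beta subunits had a median log2 fold change of 0.06, with 5 positive and 0 called. Psmb5, the chymotrypsin-like site, read 3.06, 2.79, 2.58 and 3.18 in monocrotaline samples, against 2.75, 2.87, 2.74 and 2.89 in saline samples. Monocrotaline replicates 1 and 4 lay above all saline samples and replicate 3 below them, so the groups overlapped (log2 fold change 0.09 ± 0.15, SE, limma adjusted p = 0.831). Psmb6, the caspase-like site, read 1.64, 1.60, 1.19 and 1.53 in monocrotaline samples, against 1.34, 1.41, 1.41 and 1.58 in saline samples. Its lowest and its highest values were both in monocrotaline samples (0.06 ± 0.14, limma adjusted p = 0.887). Psmb7, the trypsin-like site, read 1.84, 1.85, 1.54 and 1.90 in monocrotaline samples, against 1.56, 1.66, 1.82 and 1.82 in saline samples (0.07 ± 0.13, limma adjusted p = 0.860). Psmb3, a subunit with no cutting site, read 3.00, 2.93, 2.78 and 2.93 in monocrotaline samples, against 2.94, 3.11, 3.01 and 3.05 in saline samples. Of the monocrotaline samples 3 lay below all saline samples, and the log2 fold change was the most negative of the 7 at -0.12 ± 0.11 (limma adjusted p = 0.662). Psmb1, Psmb2 and Psmb4, which have no cutting site either, lay between -0.05 and 0.07.

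None of the 3 immunoproteasome subunits was called by limma, and for each the groups overlapped. Psmb8, the inducible counterpart of Psmb5, read 3.36, 3.07, 3.38 and 3.15 in monocrotaline samples, against 3.23, 3.44, 3.06 and 3.44 in saline samples. The groups spanned almost the same range, and the log2 fold change was -0.05 ± 0.14 (SE, n = 4 per group, 95% interval -0.37 to 0.27, limma adjusted p = 0.898). Psmb9, the counterpart of Psmb6, read 3.55, 3.70, 3.25 and 3.63 in monocrotaline samples, against 3.20, 3.57, 3.27 and 3.65 in saline samples. Each group held low and high samples, and the log2 fold change was 0.11 ± 0.16 (95% interval -0.25 to 0.47, limma adjusted p = 0.798). Psmb10, the counterpart of Psmb7, read 4.38, 4.53, 4.33 and 4.37 in monocrotaline samples, against 4.37, 4.69, 4.19 and 4.66 in saline samples. All monocrotaline values lay within the saline range, and the log2 fold change was -0.07 ± 0.14 (95% interval -0.40 to 0.26, limma adjusted p = 0.862).

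Interferon-gamma also induces Psme1 and Psme2, which together form the PA28 ring that opens the gate of the core. Psme1 read 5.04, 5.11, 4.95 and 5.01 in monocrotaline samples, against 4.82, 5.17, 4.80 and 5.15 in saline samples. Psme2 read 4.75, 4.73, 4.64 and 4.73 in monocrotaline samples, against 4.49, 4.87, 4.45 and 4.82 in saline samples. For both genes the monocrotaline samples lay within the saline range, with log2 fold changes of 0.04 ± 0.13 (limma adjusted p = 0.918) and 0.06 ± 0.13 (limma adjusted p = 0.889). In the saline group replicates 2 and 4 lay above replicates 1 and 3 for all 5 inducible genes, a pattern picked after the values were seen. Over all genes tested 17.4% had that order, and 10 of the 14 constitutive core genes had it, Psmb5 and Psmb6 among them.

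**Figure D3:**
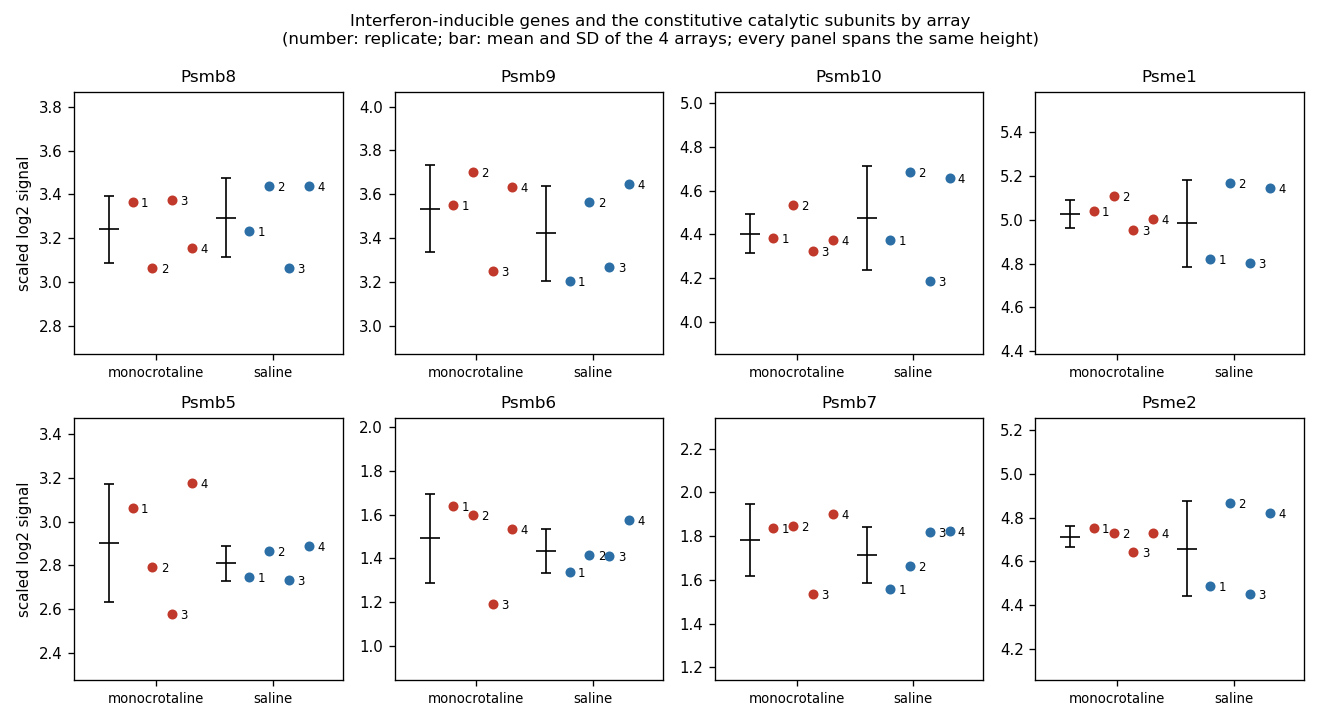
Scaled log2 signal (y axis, every panel spanning the same height) of Psmb8, Psmb9, Psmb10, Psme1 and Psme2 and of the constitutive Psmb5, Psmb6 and Psmb7 on each array, monocrotaline left and saline right, with numbers for replicates and the mean with SD (n = 4) as a bar. The groups overlap in every panel. Saline replicates 2 and 4 lie above 1 and 3 in all 5 inducible genes and also in Psmb5 and Psmb6.

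The balance of immunoproteasome to constitutive subunits was compared through the ratio within each array, which a constant shift of an array leaves as it is. Only changes of such a ratio can be read, since the probes differ. The log2 ratio of Psmb8 over Psmb5 was 0.30, 0.27, 0.80 and -0.02 in monocrotaline samples, against 0.49, 0.57, 0.33 and 0.55 in saline samples. Monocrotaline replicate 3 lay above all saline samples and the other 3 below them. The difference was -0.15 ± 0.18 (SE, n = 4 per group), with a 95% interval of -0.58 to 0.29 and p = 0.457 (two-sided exact permutation test). The log2 ratio of Psmb9 over Psmb6 was 1.91, 2.10, 2.06 and 2.10 in monocrotaline samples, against 1.87, 2.15, 1.86 and 2.07 in saline samples. These values lay within the saline range, with a difference of 0.06 ± 0.09, a 95% interval of -0.16 to 0.27 and p = 0.629 by the same exact test. The log2 ratio of Psmb10 over Psmb7 was 2.54, 2.69, 2.79 and 2.47 in monocrotaline samples, against 2.82, 3.02, 2.37 and 2.83 in saline samples. Of the saline samples 3 lay above all monocrotaline samples and replicate 3 below them, with a difference of -0.14 ± 0.16, a 95% interval of -0.52 to 0.24 and exact p = 0.40. Adjusted over the 3 pairs, p = 0.629 for each (exact permutation test, where 0.0286 is the smallest unadjusted p that 4 against 4 samples allow). After the adjustment, a ratio at that smallest p could pass only if another ratio reached it too. With all 8 arrays, the 3 intervals lay within 1.5-fold either way. Single arrays moved these small differences. That of Psmb8 over Psmb5 was -0.30 without monocrotaline replicate 3 and -0.03 without monocrotaline replicate 4. That of Psmb9 over Psmb6 was 0.11 without saline replicate 2 and 0.01 without saline replicate 3. That of Psmb10 over Psmb7 was -0.27 without saline replicate 3 and -0.05 without saline replicate 2.

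Of 12 genes of MHC class I antigen processing 10 were tested, 0 rose and 0 fell by limma (0 and 0 at an unadjusted p under 0.05), and the median log2 fold change was -0.03. RT1-A1, a class I heavy chain, was at -0.30 ± 0.14 (SE, limma adjusted p = 0.402), Tap1 at 0.26 ± 0.17 (limma adjusted p = 0.525) and RT1-A2 at -0.24 ± 0.15 (limma adjusted p = 0.528). Of 23 genes of the interferon axis 22 were tested, and 0 were called by limma, with a median of 0.01. At an unadjusted p under 0.05, 2 of the 22 were higher, Ifng among them, and 0 lower, beside 6.72% and 7.23% of all genes. Irf1, a factor that drives the immunoproteasome genes, was at -0.16 ± 0.16. Ifng, the interferon-gamma gene of T and NK cells, was well above background on 4 of 4 monocrotaline arrays and on 0 of 4 saline arrays. It thus passed the filter on dim probes only through the group where it is high. Its values, its p and its place in the count above are therefore a description. It was at least 2.21-fold higher after monocrotaline, where the saline side is set no lower than the lowest signal well above background on each array, but it did not pass (limma adjusted p = 0.0855). Cxcl10, a chemokine that interferon induces, read 0.02, -0.52, -0.42 and -0.11 in monocrotaline samples, against -1.20, -0.93, -1.16 and -0.71 in saline samples. Its groups did not overlap, and it did not pass either (0.74 ± 0.17, limma adjusted p = 0.0967). Groups that do not overlap, with monocrotaline higher, were found in 4.55% of all genes.

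The 16 tested subunits of the 19S particle, with 0 called, were split evenly between positive and negative log2 fold changes. The 6 ATPases, which thread the substrate into the core, had a median log2 fold change of 0.06, with 4 positive and 0 called. Psmc1 read 2.11, 2.00, 1.73 and 2.20 in monocrotaline samples, against 1.73, 1.64, 1.91 and 2.07 in saline samples. Monocrotaline replicates 1 and 4 lay above all saline samples, and replicate 3 lay with the 2 lowest of them (0.17 ± 0.15, SE, limma adjusted p = 0.663). Psmc4 read 1.39, 1.26, 1.31 and 1.43 in monocrotaline samples, against 1.18, 1.11, 1.11 and 1.33 in saline samples. It was higher in all 4 monocrotaline samples than in 3 of the saline samples, and the fourth saline sample lay among them (0.16 ± 0.11, limma adjusted p = 0.544). Psmc2, Psmc3, Psmc5 and Psmc6 lay between -0.02 and 0.13.

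The 10 tested non-ATPase subunits of the 19S particle had a median log2 fold change of -0.02, with 0 called. Psmd14, the enzyme that cuts ubiquitin from the substrate, read 0.63, 0.42, 0.72 and 0.73 in monocrotaline samples, against 0.54, 0.42, 0.53 and 0.36 in saline samples. Of the monocrotaline samples 3 lay above all saline samples and replicate 2 lay among them (0.16 ± 0.12, SE, limma adjusted p = 0.578). Psmd7, which pairs with Psmd14 in the lid, read 0.74, 0.61, 0.29 and 0.31 in monocrotaline samples, against 0.56, 0.62, 0.62 and 0.73 in saline samples. Replicates 3 and 4 after monocrotaline were the lowest of all 8 (-0.14 ± 0.14, limma adjusted p = 0.692). The scaffold subunits Psmd1 and Psmd2 were at 0.02 and -0.08, the ubiquitin receptor Psmd4 at -0.03, and the lid subunits Psmd3, Psmd6, Psmd8, Psmd12 and Psmd13 between -0.06 and 0.13.

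The other activators of the core had the largest differences among proteasome genes. Psme3 encodes PA28 gamma, a nuclear activator that works without ubiquitin. It read -0.75, -0.62, -0.02 and -0.19 in monocrotaline samples, against -0.71, -0.78, -0.86 and -0.95 in saline samples. Monocrotaline replicates 2, 3 and 4 lay above all saline samples, the last pair by the most, while replicate 1 lay within the saline range. The log2 fold change was 0.43 ± 0.18 (SE, n = 4 per group, 1.35-fold, 95% interval 0.02 to 0.84), and it did not pass (limma adjusted p = 0.338). Without monocrotaline replicate 3 it was 0.31.

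Psme4 encodes PA200, an activator known for the breakdown of acetylated histones. It read 0.38, 0.29, 0.51 and 0.65 in monocrotaline samples, against 0.88, 0.61, 1.03 and 0.84 in saline samples. Of the monocrotaline samples 3 lay below all saline samples, and replicate 4 lay just above saline replicate 2. The log2 fold change was -0.39 ± 0.14 (SE, 95% interval -0.70 to -0.07), a ratio of 0.765, and it did not pass (limma adjusted p = 0.277). A second probe of Psme4, with 10 spots, read -0.37, -0.30, -0.34 and -0.11 in monocrotaline samples, against -0.01, -0.18, 0.07 and 0.16 in saline samples (-0.29 ± 0.13, limma adjusted p = 0.357). On both probes the signs were alike. Psmf1, the gene of the inhibitor PI31, was at 0.09 ± 0.12 with its brighter probe and at -0.06 ± 0.15 with the other (limma adjusted p = 0.777 and 0.898).

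Among 5 assembly chaperones 4 had a negative log2 fold change and 0 were called, with a median of -0.15. Psmd10, also known as gankyrin, a chaperone of the ATPase ring, read 0.84, 0.76, 0.35 and 0.55 in monocrotaline samples, against 0.89, 0.74, 0.99 and 1.14 in saline samples. Replicates 3 and 4 after monocrotaline lay below all saline samples, and the others lay within the saline range (-0.31 ± 0.15, SE, limma adjusted p = 0.399). Psmg2, which helps to build the alpha ring, read -0.49, -0.17, -0.55 and -0.46 in monocrotaline samples, against -0.24, -0.44, 0.04 and 0.12 in saline samples (-0.29 ± 0.16, limma adjusted p = 0.461). Of the monocrotaline samples 3 lay below all saline samples. Psmg4 was at -0.15 ± 0.16 with its brighter probe and -0.07 ± 0.12 with the other. Psmd5 and Psmd9, chaperones of the ATPase ring, were at 0.05 ± 0.12 and -0.04 ± 0.15, and the second probe of Psmd9 gave -0.03.

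The largest difference among the 45 symbols belonged to a gene that is no proteasome subunit. Psmc3ip encodes HOP2, a protein known for its part in the repair of DNA breaks by meiotic recombination. It read -0.63, -0.86, -1.21 and -0.70 in monocrotaline samples, against -1.56, -1.55, -1.61 and -1.54 in saline samples. All 4 monocrotaline samples lay above all saline samples, and the saline samples lay close together, with an SD of 0.03 against 0.26 after monocrotaline. The log2 fold change was 0.71 ± 0.15 (SE, n = 4 per group, 1.64-fold, 95% interval 0.38 to 1.05), just short of the threshold over all genes (limma adjusted p = 0.0654). It passed without monocrotaline replicate 3 (0.84, limma adjusted p = 0.0196) and with array weights (0.73, limma adjusted p = 0.0268). It did not pass in the other 18 of 20 alternatives, with limma adjusted p up to 0.230. Taken over the saline mean, the mean of the 14 proliferation genes on monocrotaline replicates 1 to 4 was 2.09, 1.57, 1.34 and 2.17, so the replicates with more Psmc3ip, 1 and 4, also had more of those transcripts. The part of proliferation in the level of Psmc3ip was not tested. Psme3ip1, a binding partner of PA28 gamma, read -0.09, -0.11, -0.08 and 0.01 in monocrotaline samples, against -0.03, -0.20, -0.03 and 0.15 in saline samples, and the groups overlapped (-0.04 ± 0.12, limma adjusted p = 0.907).

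**Figure D4:**
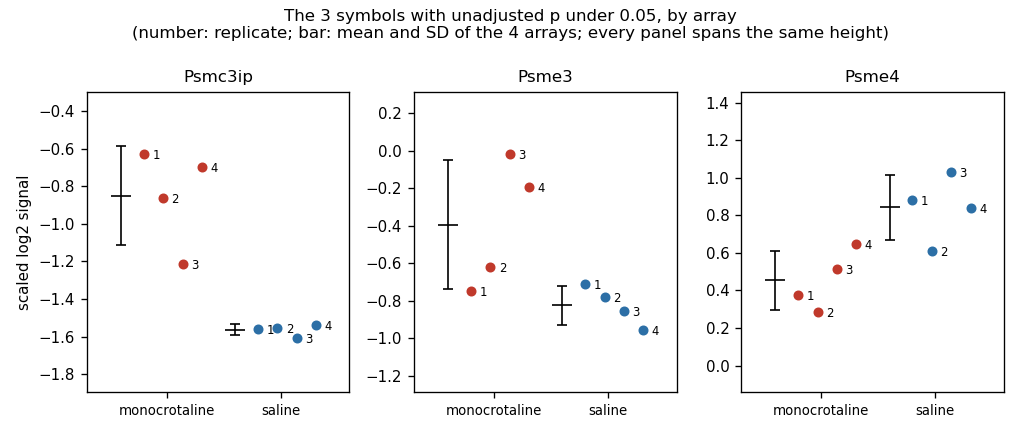
Scaled log2 signal (y axis, every panel spanning the same height) of Psmc3ip, Psme3 and Psme4, the 3 symbols with an unadjusted p under 0.05, on each array, monocrotaline left and saline right, with numbers for replicates and the mean with SD (n = 4) as a bar. The groups of Psmc3ip do not overlap, those of Psme3 overlap through monocrotaline replicate 1, and those of Psme4 through monocrotaline replicate 4 and saline replicate 2.

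Of 28 listed genes that feed, build or regulate the proteasome 22 were tested, 0 were called by limma, and the median log2 fold change was -0.04. At an unadjusted p under 0.05, 0 were higher and 1 lower, beside 6.72% and 7.23% of all genes. Sem1, a small subunit of the lid, was at -0.28 ± 0.16 (limma adjusted p = 0.471) and Usp14, a ubiquitin-cutting enzyme on the 19S particle, at 0.26 ± 0.16 (limma adjusted p = 0.496). The mean of the 22 genes over the saline mean ran from -0.06 to -0.02 on monocrotaline arrays and from -0.07 to 0.05 on saline arrays.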

How the data were processed

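Total RNA (10 ng per sample, per the labels) of 8 rats was read on 1-colour arrays, 1 per rat, and groups were taken from the sample titles. The authors' deposited signal is an intensity, background-subtracted and detrended within the array but not scaled between arrays, according to the file headers, which name Agilent Feature Extraction 10.7.3.1. Flag columns, also deposited, hold other values (0 or 1). In the authors' deposited value table the log2 was applied a second time: raising 2 to its values returned the quantile-normalized log2 signal of all 62976 features, with a median absolute difference of 9.89e-10. Its build step is not given in the sources used here, though the submitters' processing notes name limma 3.6.9. It served as an alternative.

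Spots flagged as outliers and 4259 control spots were left out, the remaining spots of a probe were averaged, and each array's 75th percentile of log2 signals was set to 0. Probes well above background on at least 4 of 8 arrays were kept (21652 of 30367), and between 70.8% and 77.7% of spots were above background. Accessions were matched to RefSeq symbols (GRCr8 table): 18006 probes matched and 12361 did not. Unmatched probes that passed the filter were kept under their accession or probe name and count among the genes tested. The brightest probe stood for a gene, and 5 of the 46 symbols had several. The groups were compared with limma 3.58.1 in R 4.3.3 (moderated test, two-sided, Benjamini-Hochberg over 19137 genes, threshold 0.05). The pipeline was tested on simulated data. The pair ratios had exact permutation tests, with intervals from a linear model of each ratio. Precision is limited by the number of arrays, 4 per group.

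Values on every array were given for Psmb5 to Psmb10, the 3 largest rises and falls and up to 2 members of each class with the lowest p, and up to 3 genes were named per list. Irf1 is an exception, picked after its values were seen. Tap2 and B2m are exceptions too, named for the order of the saline samples. Of the genes in the lists, some are counted but not reported here by name. Members and gene lists were chosen with earlier results of these data known. Alternatives were other normalizations, background correction, filters, probe rules, variance models, a replicate block, and leaving out arrays.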

Additional observations from a re-analysis of the deposited data

How the results depend on the processing

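Of the 43 proteasome genes 0 were called under any of the 20 alternatives. The count of called symbols of the pattern, 0 higher and 0 lower, became 1 higher with array weights and ranged from 0 to 1 with 1 array left out, in both cases through Psmc3ip. The median log2 fold change of the 43 genes stayed between -0.05 and 0.05, and the sign of so small a value turned with the scaling (0.03 with quantile normalization, -0.05 with median scaling). Over the 16 alternatives for each ratio, none of which passed, the difference ran from -0.36 to -0.03 for Psmb8 over Psmb5, from 0.01 to 0.12 for Psmb9 over Psmb6 and from -0.27 to -0.05 for Psmb10 over Psmb7. With 2 monocrotaline arrays left, and with the replicate block, the exact test could not have reached the threshold, so these 2 say nothing of it. In the remaining alternatives a ratio could pass only if another ratio reached the smallest possible p as well, so the lack of a pass says little. Psme3 stayed positive (0.31 to 0.55) and Psme4 negative (-0.46 to -0.32) under all 20, with no call. The replicate numbers do not pair the samples (same-numbered deviations correlated at -0.33 to -0.01): with a replicate block the median was -0.01, the pair ratios kept their values (adjusted exact p = 0.625), and 0 symbols of the pattern were called. The counts over all genes, 262 higher and 12 lower, became 0 and 0 with that block, 367 and 59 with array weights, 51 and 1 without monocrotaline replicates 1 and 3, and ran from 11 to 273 and from 0 to 93 with 1 array left out. Normexp with either scaling gave 21 lower.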

Other observations

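The order of the saline samples seen in the inducible genes, replicates 2 and 4 above replicates 1 and 3, was a pattern picked after the values were seen and is given as a description. It was found in 10 of 14 constitutive core genes, 5 of 16 subunits of the 19S particle and 22 of all 43 proteasome genes, beside 17.4% of all genes. Among genes that work with the immunoproteasome, Tap2, B2m and Irf1 had it and Tap1 did not. On saline replicates 1 to 4 the mean of the 5 inducible genes over the saline mean was -0.14, 0.18, -0.21 and 0.17. The mean of the fibroblast and smooth muscle markers was 0.63, -1.74, 1.53 and -0.42 on the same arrays, and that of the alveolar type 2 markers 1.01, -1.78, 1.23 and -0.47. The mean of the tested interferon axis genes was -0.06, 0.09, -0.21 and 0.18 on these arrays. That of the MHC class I genes was -0.12, -0.02, -0.09 and 0.23. Both means had the order of the inducible genes. The endothelial mean, at -0.11, -0.25, -0.02 and 0.38, did not have it. The parts of cell makeup and of an interferon response in this order were not tested.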
